A study of Mus musculus with 20 samples.

Results

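The genes described here are 36 genes of glycolysis and of the cellular response to low oxygen, followed in endothelial cells sorted from mouse tumours. They were taken from a fixed list of symbols, and all 36 were found among the 46983 gene identifiers of the tables. E0771 is a mouse mammary carcinoma line, and its cells were grown as orthotopic tumours in C57BL/6J hosts until a tumour measured 500 mm3. CD31-positive cells (CD31 is the surface protein encoded by Pecam1) were bead-enriched, sorted and profiled by bulk RNA sequencing, 20 libraries in all. The hosts had 6 genetic backgrounds. CD4 T cells are labelled present in 4 WT (wild type), 3 CD8KO and 3 Tie2Cre libraries. They are labelled deficient in 3 CD4KO libraries, in 3 TCRKO libraries and in the 4 libraries of Tie2Cre_H2Abf, which joins Tie2Cre to a floxed H2Ab allele. Tie2Cre is a Cre recombinase whose Tie2 promoter is active in endothelial cells and also in blood cells, and H2-Ab1 encodes a chain of MHC class II. Tumour size at resection, the host strain and the tumour line were the same in all groups, and no host age was used. Libraries are named by background and library number, as in the labels. The labels do not tie libraries to separate animals, and the p-values therefore cover the spread between libraries alone, part of which may be technical.

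Glycolysis splits glucose into pyruvate, which lactate dehydrogenase can turn into lactate for export. When oxygen falls, prolyl hydroxylases of the Egln family stop marking the HIF alpha subunits (Hif1a, Epas1) for destruction, and HIF dimers then switch on genes whose promoters hold a short core motif, among them glucose transporters, glycolytic enzymes and Egln3 itself. Endothelial cells are known for a high glycolytic rate, and Pfkfb3, which makes the activator of phosphofructokinase, is known as a driver of vessel sprouting. Tumour vessels are often poorly perfused.

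The promoters of some of the members that stood out below are shown first, because the core motif bound by HIF can be read in them directly. RefSeq promoter windows of 300 bases (250 before to 50 after a transcript start, build GRCm38.p6) were found for 32 of the 36 members. The other 4 are Slc2a3, Bnip3l, Epas1 and Ndrg1. Each window is printed 5′ to 3′ along the gene's own strand, and capitals mark every match to ACGTG or GCGTG on either strand, where a match to ACGTG can overlap one to its own complement.
Pfkfb3, chr2:11553880-11554179, minus strand: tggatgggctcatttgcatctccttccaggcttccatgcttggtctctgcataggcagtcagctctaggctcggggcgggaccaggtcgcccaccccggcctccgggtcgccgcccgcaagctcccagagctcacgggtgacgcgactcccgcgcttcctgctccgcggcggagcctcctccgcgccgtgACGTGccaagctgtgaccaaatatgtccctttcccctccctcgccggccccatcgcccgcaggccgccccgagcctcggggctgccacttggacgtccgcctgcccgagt
Pfkfb3, second start, chr2:11502041-11502340, minus strand: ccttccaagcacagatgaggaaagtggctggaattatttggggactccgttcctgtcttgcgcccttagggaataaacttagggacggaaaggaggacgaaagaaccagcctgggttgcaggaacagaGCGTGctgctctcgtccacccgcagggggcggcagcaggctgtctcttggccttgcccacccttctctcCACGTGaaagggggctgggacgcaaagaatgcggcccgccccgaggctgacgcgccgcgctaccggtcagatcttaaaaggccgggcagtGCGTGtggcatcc
Gapdh, chr6:125165724-125166023, minus strand: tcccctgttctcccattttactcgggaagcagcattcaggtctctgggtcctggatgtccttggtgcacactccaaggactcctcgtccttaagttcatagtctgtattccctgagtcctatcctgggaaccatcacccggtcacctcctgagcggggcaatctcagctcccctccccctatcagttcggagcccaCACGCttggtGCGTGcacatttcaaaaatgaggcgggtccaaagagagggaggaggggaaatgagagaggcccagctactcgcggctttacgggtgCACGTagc
Pgk1, chrX:106186850-106187149, plus strand: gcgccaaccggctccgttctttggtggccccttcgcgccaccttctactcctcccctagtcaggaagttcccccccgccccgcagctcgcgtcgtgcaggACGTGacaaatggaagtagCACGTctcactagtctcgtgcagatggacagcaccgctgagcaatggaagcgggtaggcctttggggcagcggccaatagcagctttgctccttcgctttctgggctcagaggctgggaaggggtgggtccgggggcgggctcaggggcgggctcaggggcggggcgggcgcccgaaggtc
Tpi1, chr6:124814109-124814408, minus strand: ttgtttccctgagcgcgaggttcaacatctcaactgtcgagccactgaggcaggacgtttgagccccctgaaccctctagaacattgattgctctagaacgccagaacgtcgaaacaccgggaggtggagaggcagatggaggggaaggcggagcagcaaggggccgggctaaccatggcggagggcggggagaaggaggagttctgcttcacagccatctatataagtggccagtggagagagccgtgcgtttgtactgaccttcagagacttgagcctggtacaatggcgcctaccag
Egln3, chr12:54203825-54204124, minus strand: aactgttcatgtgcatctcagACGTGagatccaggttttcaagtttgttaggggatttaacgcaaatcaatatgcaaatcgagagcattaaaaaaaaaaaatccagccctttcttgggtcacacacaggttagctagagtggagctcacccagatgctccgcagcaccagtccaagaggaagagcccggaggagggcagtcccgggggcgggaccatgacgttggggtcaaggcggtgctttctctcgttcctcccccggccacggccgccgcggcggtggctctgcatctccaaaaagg
The first Pfkfb3 window held 1 match and the second 4, Gapdh 3, Pgk1 2, Egln3 1 and Tpi1 none. The window of Gpi1, which also stood out below but is not printed, held 0. Among all member windows 37 of 45 held a match (82.22%), against 14380 of 32851 windows in the table (43.77%). The median GC content was 64.67% in the member windows and 52.67% in all windows. A match describes letters in a window and is not a measured binding site.

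Total counts per library ran from 1543880 to 11478932 with a median of 7531949, and amplified total RNA left 12.83% to 81.03% of a library's counts on protein-coding genes. TMM factors, which turn these depths into effective library sizes, ran from 0.523 to 1.767 but stood at 3.685 in CD8KO_9752. That library also held the 81.03%, and its CPM values are scaled down the most. The members took 0.7318% to 1.356% of the protein-coding counts in 18 libraries, but 0.1127% in WT_9771 and 0.4162% in Tie2Cre_9501. These were also the 2 least deep libraries, and the counts over the members in each comparison of backgrounds are also given without them. The 2 were chosen by name with earlier results of these data known, and not by a cutoff on depth. Pecam1, the sorted protein's gene, was at 434.9 to 1377 CPM (counts scaled to a common effective library size) in every library. H2-Ab1 was at 3.15 ± 2.69 CPM (SD, n = 4) in Tie2Cre_H2Abf against 60.5 ± 35.4 (n = 3) in Tie2Cre. Cd8a was at 39.0 to 69.8 CPM in the 3 libraries labelled CD8KO and at most 2.94 in any other, which goes against a simple reading of that label. Cd8b1 had 0 counts there, as it also had in WT and TCRKO. Cd4 was at 9.16 ± 5.92 CPM in CD4KO and 6.87 ± 6.78 in WT, and Trac had 1 count in the WT libraries together and 17 in TCRKO, so neither transcript tells these libraries apart. In bulk RNA, fewer cells of a type and less RNA per cell cannot be told apart.

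Levels are compared between genes in TPM (abundance scaled for transcript length and depth), as the median of the 20 libraries. The glucose transporter Slc2a1 stood at 32.7 TPM and its relative Slc2a3 at 0.14. The lactate exporter Slc16a3 stood at 5.53 TPM and Slc16a1 at 0.42. In upper glycolysis, Aldoa (aldolase) reached 95.9 TPM, Gpi1 (glucose-6-phosphate isomerase) 74.0, Tpi1 (triosephosphate isomerase) 47.7, Pfkp (platelet-type phosphofructokinase) 23.4, Pfkfb3 21.9 and Hk1 (hexokinase) 13.1. Pfkl, Pfkfb4 and Pfkm lay between 1.01 and 5.16 TPM. In lower glycolysis, Gapdh reached 745 TPM, rank 26 among all genes, followed by Pkm (pyruvate kinase, 144), Eno1 (enolase, 140), Pgam1 (54.2), Ldha (47.7) and Pgk1 (22.9). Pdk1, the kinase that holds pyruvate back from oxidation in mitochondria, stood at 4.82. Of the oxygen sensing genes, Epas1 (HIF-2 alpha) reached 57.7 TPM, Hif1a 21.5, Egln3 3.31 and Egln1 1.78. Among other hypoxia targets Ndrg1 led with 93.8 TPM. Bnip3l, a receptor for removal of mitochondria, stood at 10.7 TPM; Ddit4, P4ha1, Ankrd37, P4ha2, Higd1a and Bnip3 lay between 0.37 and 4.12. Aldoc and Eno2 were at 0 in the median library, with 57 and 16 counts in all 20 libraries together, and Ldhb at 0.1 TPM. Levels in TPM differ between libraries partly through the share of counts that other RNA takes, which is why libraries are compared in CPM.

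**Figure D1:**
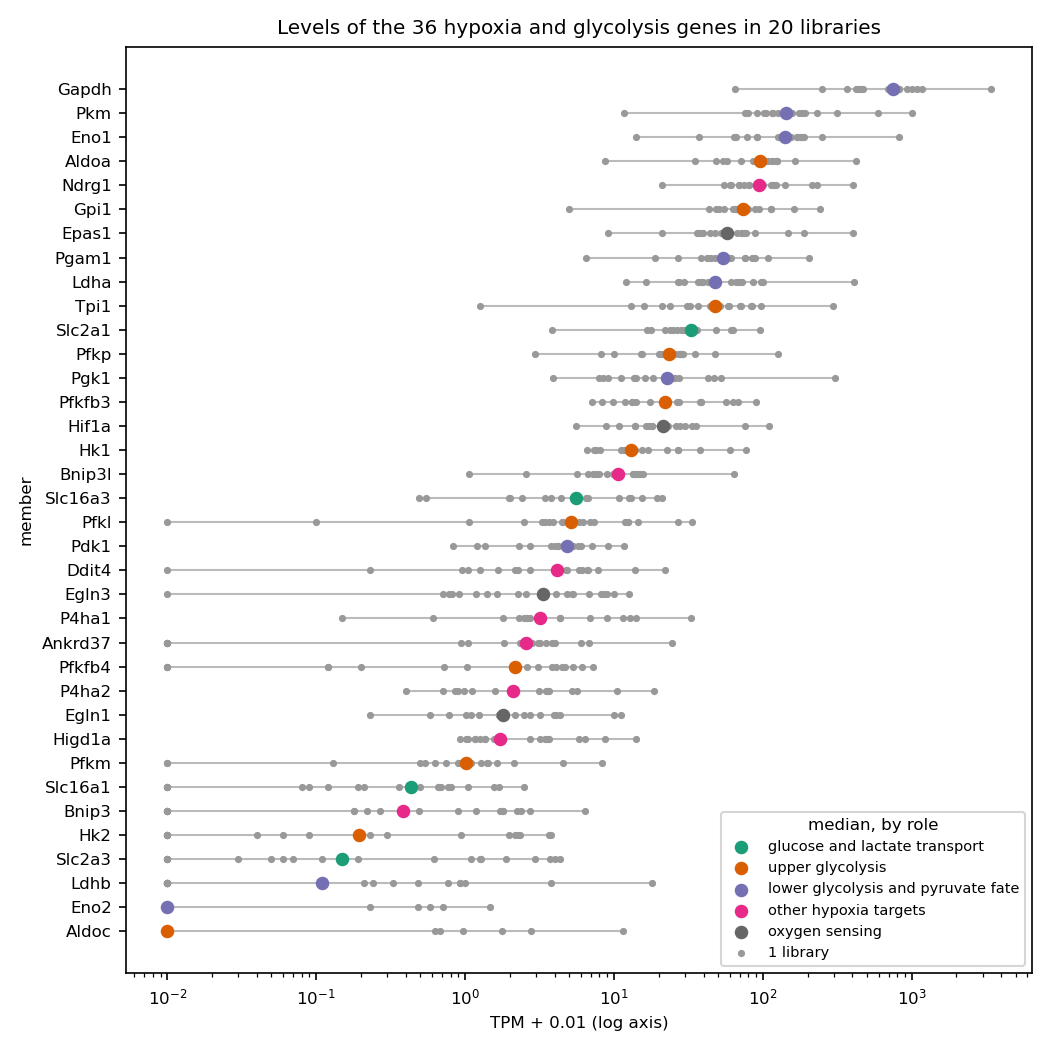
Levels of the 36 members in TPM (log axis, 0.01 added), small grey points for each of the 20 libraries and a large point for the median, coloured by role. Gapdh stands highest at 745 TPM, and Hk2, Slc2a3, Ldhb, Eno2 and Aldoc lie at the bottom with medians from 0 to 0.185.

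Most families were carried by 1 gene. Within a library, Aldoa held 100% of the Aldoa and Aldoc signal in the median library, Eno1 100% against Eno2, Ldha 99.97% against Ldhb, Hk1 99.56% against Hk2 and Slc2a1 99.02% against Slc2a3. The lowest share in any library was 95.28% for Eno1, 85.56% for Slc2a1, 79.9% for Ldha, 75.3% for Aldoa (Tie2Cre_9501) and 75.11% for Hk1 (WT_9771). Pfkfb3 held 94.48% against Pfkfb4, and 53.52% in its lowest library. Phosphofructokinase was shared: Pfkp held 76.76% (45.6% to 100%), more than 50% in 18 of 20 libraries, Pfkl 19.29% and Pfkm 3.33%. Epas1 held 72.46% of the Epas1 and Hif1a signal (48.19% to 87.79%) and exceeded 50% in 19 of 20 libraries. Slc16a1 held 4.51% against Slc16a3 (0% to 59.7%). It exceeded 50% in 2 libraries, Tie2Cre_9501 and Tie2Cre_9504, where the pair had 10 and 24 counts. Bnip3 held 2.71% against Bnip3l (0% to 36.62%). P4ha1, a subunit of the collagen prolyl hydroxylase, held 61.52% against P4ha2, and Egln1 39.89% against Egln3 with a range of 5.14% to 100%, so neither pair had a steady leader. These shares are ratios within a library and are descriptions with no test.

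**Figure D2:**
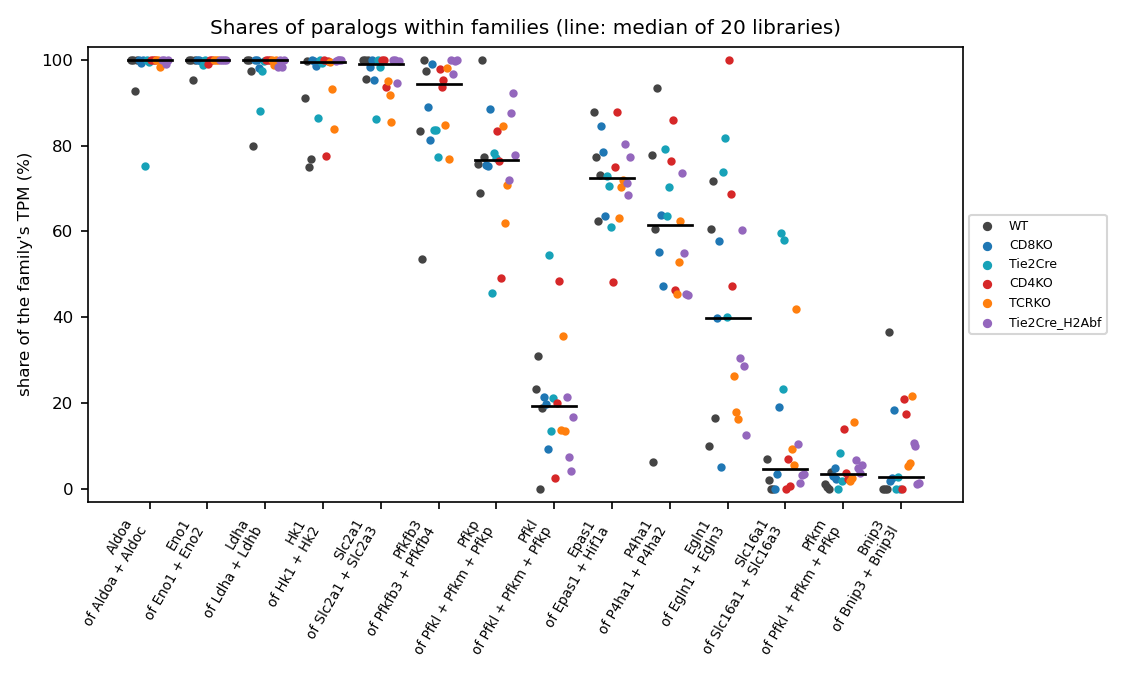
Share of each family's TPM held by 1 gene (y axis, percent), 1 point per library coloured by background, with a line at the median of 20 libraries. The medians of Aldoa, Eno1, Ldha, Hk1 and Slc2a1 sit near 100%, with single libraries down to 75.11%, those of Pfkp and Epas1 near 75%, and Egln1 is spread over most of the range.

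**Figure D3:**
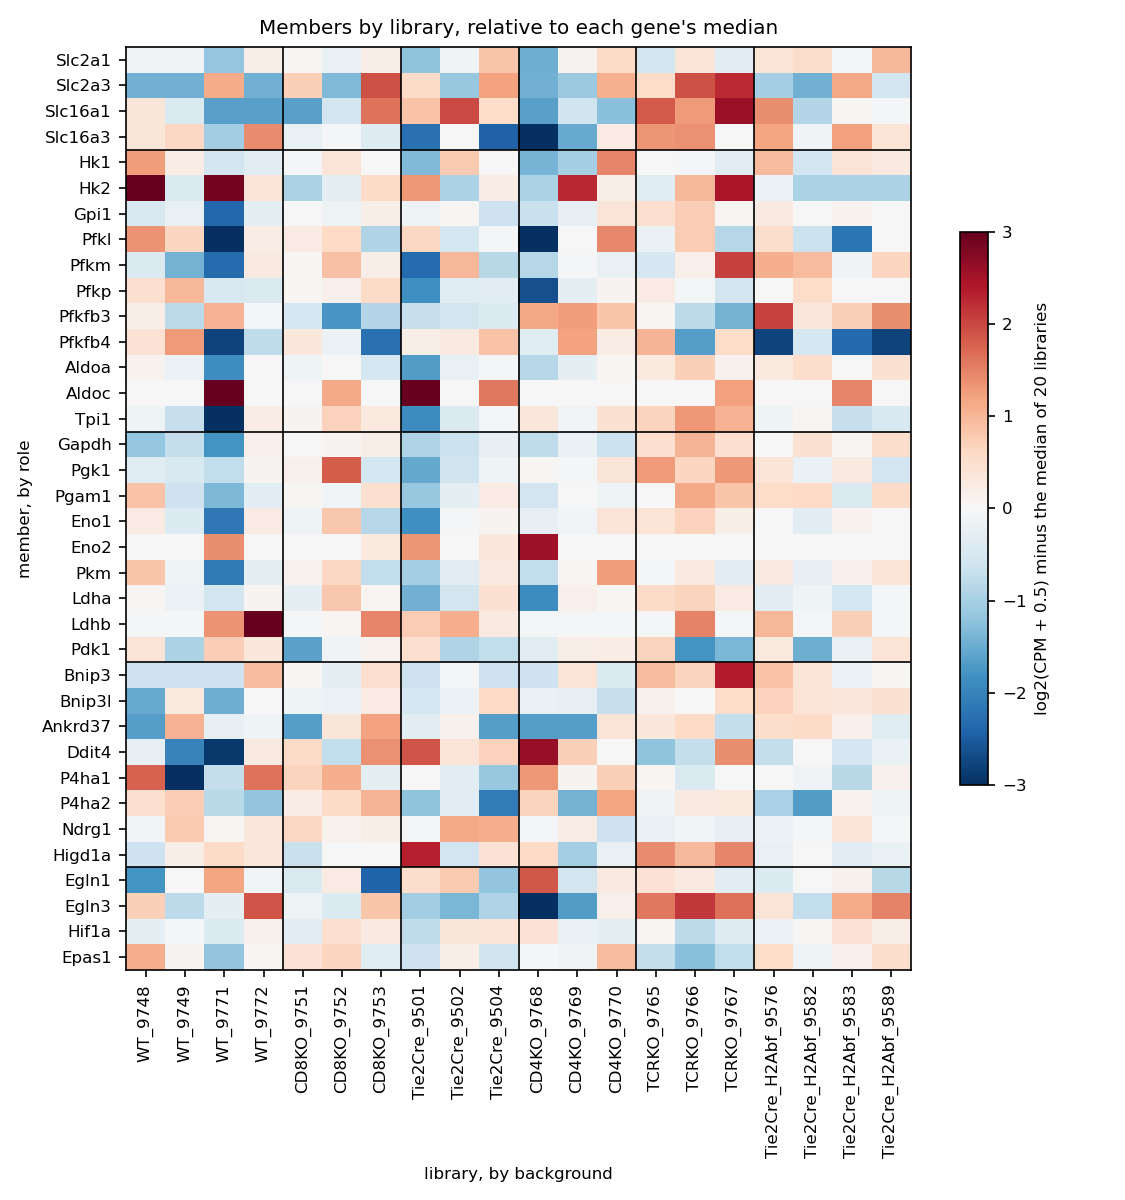
log2(CPM + 0.5) of each member (rows, by role) in each library (columns, by background) minus that gene's median over 20 libraries. The 3 TCRKO libraries are red for Gapdh, Tpi1, Pgk1 and Egln3. For Gpi1, TCRKO_9765 and TCRKO_9766 are red and TCRKO_9767 lies near the median. The 3 CD4KO and 4 Tie2Cre_H2Abf libraries are red for Pfkfb3. WT_9771 and Tie2Cre_9501 are blue for Gapdh, Pkm, Eno1, Aldoa, Pgam1 and Tpi1.

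A single test asked whether any member differed between any of the 6 backgrounds. Of the 36 members 33 passed the filter on low counts; Eno2, Ldhb and Bnip3 did not. No member passed the threshold (edgeR's quasi-likelihood test, adjusted p under 0.05), where 0.0605% of all 14875 genes did. At an unadjusted p under 0.05 there were 5 of 33 members, against 9.34% of all genes; DESeq2 passed 2 members, Pfkfb3 and Gapdh, where it passed 1.03% of the 33340 genes it was run on, and limma-voom passed 0 members. Pfkfb3 came closest in edgeR (adjusted p = 0.101), followed by Gapdh (0.465), Pgk1 (0.498) and Egln3 (0.502). Without WT_9771 the adjusted p of Pfkfb3 was 0.0311, and without both of the 2 least deep libraries 0.037. The common biological coefficient of variation was 0.995.

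Pfkfb3 (chromosome 2, minus strand) was at 121, 128 and 95.9 CPM in CD4KO and at 222, 67.8, 87.7 and 142 CPM in Tie2Cre_H2Abf. In WT it was at 61.3, 30.8, 111 and 51.9 CPM. The libraries labelled CD8KO gave 37.1, 15.6 and 28.7 CPM, Tie2Cre 32.9, 36.6 and 40.3, and TCRKO 55.3, 31.0 and 19.8. CD4KO and Tie2Cre_H2Abf were thus above every CD8KO, Tie2Cre and TCRKO library, with WT between and WT_9771 its highest value in CPM. That value rests on 135 counts and on a TMM factor of 0.6131, so it depends on the scaling of a shallow library. By mean the order was Tie2Cre_H2Abf (130 ± 68.8), CD4KO (115 ± 16.8), WT (63.7 ± 33.9), Tie2Cre (36.6 ± 3.71), TCRKO (35.4 ± 18.2) and CD8KO (27.1 ± 10.8, SD throughout). Neighbours in this order overlapped in their ranges. The summed level of 14 macrophage markers, none of them at 0 in any background, was 1365 ± 887 CPM in WT, 1170 ± 92.2 in CD4KO and 913 ± 245 in Tie2Cre_H2Abf, against 669 ± 280 in TCRKO, 488 ± 101 in libraries labelled CD8KO and 466.3 ± 165 in Tie2Cre. The 3 backgrounds highest in Pfkfb3 were also the 3 highest in this sum, and its part in the result was not tested.

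**Figure D4:**
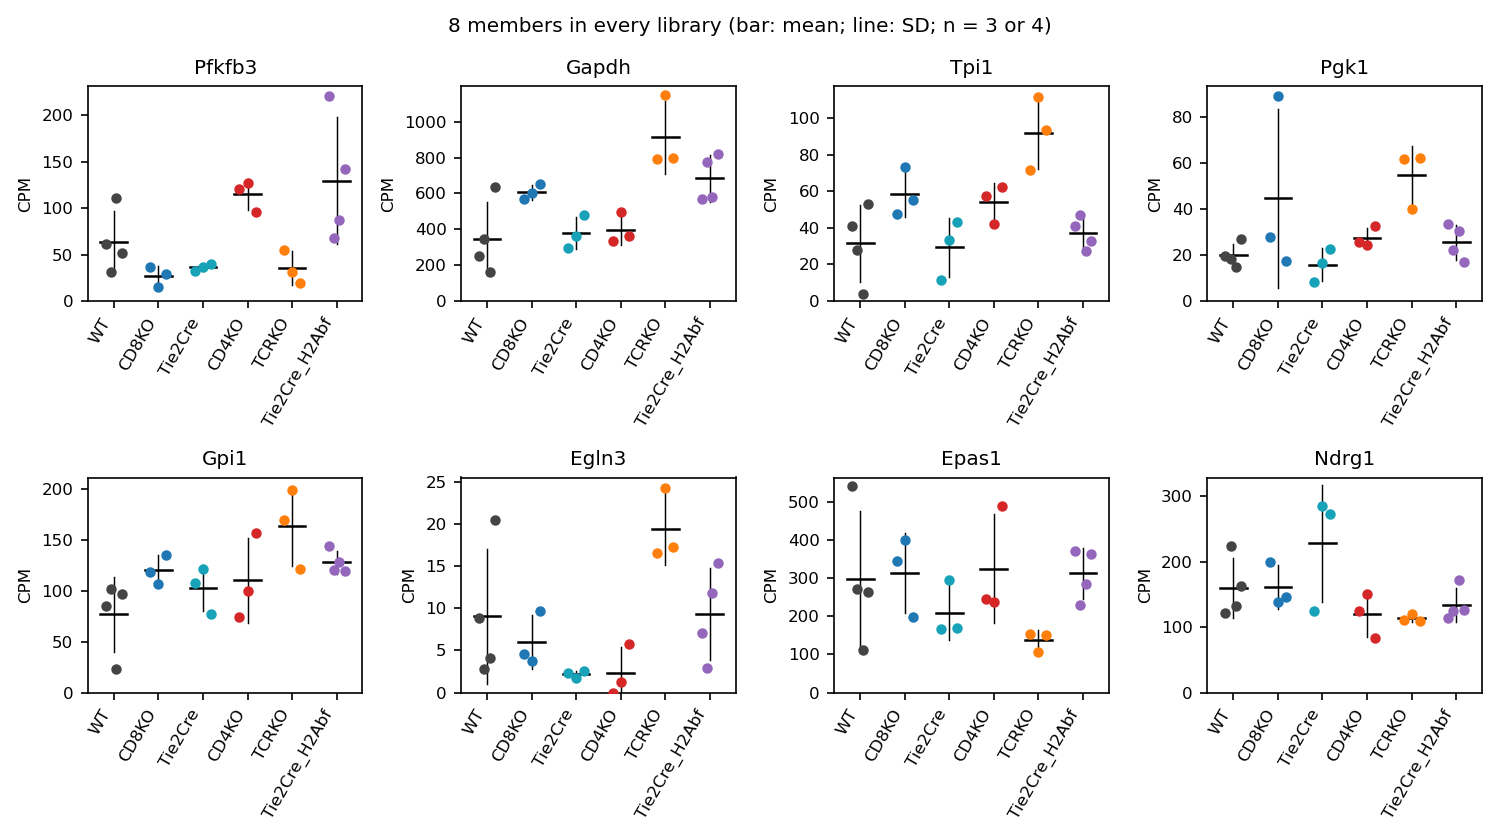
CPM (linear axis from 0) of 8 members in every library, by background, with the mean as a bar and the SD as a line (n = 3 or 4). Pfkfb3 is high in CD4KO and Tie2Cre_H2Abf, Gapdh, Tpi1, Pgk1, Gpi1 and Egln3 are highest by mean in TCRKO, and Epas1 is lowest there.

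Libraries of the 3 CD4-deficient backgrounds were then set against the 3 competent ones, 10 against 10, the division the submitters give. This fit takes libraries of different backgrounds as replicates of a class. Its SEs and p-values treat 10 libraries a side as independent, though CD4 status differs only between backgrounds, 3 on each side. No member passed in edgeR, and 0% of all genes did. At an unadjusted p under 0.05, 2 members were higher and 1 lower, where 7.27% of all genes passed, 1.9% higher and 5.37% lower. DESeq2 and limma-voom passed 0 members as well. Of the 33 members 21 had a fitted change above 0 and 12 below, against 42.9% of all genes above 0. The median log2 change of the members was 0.25 and that of all genes -0.11; without TCRKO_9767 the former was 0.0731, without CD4KO_9768 0.169 and without WT_9771 0.161. Pfkfb3 ran from 19.8 to 222 CPM with a median of 91.8 in deficient libraries, and from 15.6 to 111 with a median of 36.8 in competent ones. Its log2 change was 1.13 ± 0.36 (SE; adjusted p = 0.383), and the TCRKO libraries lay at the low end of the deficient range. Gapdh ran from 337 to 1149 CPM (median 676) in deficient libraries and from 163 to 652 (median 419) in competent ones, a log2 change of 0.62 ± 0.25 (adjusted p = 0.593). Ndrg1, a stress-induced protein of the cytoplasm, ran the other way, with a median of 123 CPM and a range of 83.1 to 172 in deficient libraries. Its log2 change was -0.55 ± 0.21 (adjusted p = 0.535). Within the libraries numbered 97xx alone the log2 change was 0.65 for Pfkfb3, 0.52 for Gapdh and -0.46 for Ndrg1 (adjusted p = 0.999 for each), and the member median was 0.28; those numbered 95xx are Tie2Cre and Tie2Cre_H2Abf, compared next. The groups overlapped for every member, as they did for all 14875 genes. Without the 2 least deep libraries 20 members lay above 0 and 13 below, and 1 was higher and 1 lower at an unadjusted p under 0.05 (5.14% and 2.32% of all genes). The member median was then 0.155, with all genes at 0.038. Aldoa, the fourth member by p, had a log2 change of 0.51 ± 0.25 (adjusted p = 0.691), and 0.31 without the 2 least deep libraries.

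Tie2Cre_H2Abf against Tie2Cre compares backgrounds with the same Cre. No member passed in edgeR (0.0202% of all genes did), DESeq2 or limma-voom. At an unadjusted p under 0.05, 4 members were higher and 2 lower, beside 8.54% of all genes, 2.69% higher and 5.86% lower. The 4 were Pfkfb3, Gapdh, Slc16a3 and Egln3; the 2 were Pfkfb4 and Ndrg1. Of the 33 members 23 had a fitted change above 0, where 41.6% of all genes did, and the median was 0.32 against -0.24 for all genes. Pfkfb3 had a log2 change of 1.83 ± 0.50 (adjusted p = 0.576), and its lowest Tie2Cre_H2Abf library (67.8 CPM) was above its highest Tie2Cre library (40.3). Gapdh was at 568.3, 775, 578 and 819 CPM in Tie2Cre_H2Abf and at 298, 361 and 478 in Tie2Cre, again without overlap (0.85 ± 0.36, adjusted p = 0.576). Slc16a3, the lactate exporter, was at 20.9, 8.30, 21.7 and 12.01 CPM against 1.51, 9.02 and 1.26, and 1 library of each background overlapped (1.96 ± 0.86, adjusted p = 0.576). Without Tie2Cre_9502 its log2 change was 3.53. Pfkfb4 was at 0, 1.86, 0.178 and 0 CPM against 3.40, 3.66 and 5.67, a level of few counts, 11 of 12 in Tie2Cre_H2Abf_9582 (-3.02 ± 1.37, adjusted p = 0.576). Without that library 1 count was left in the background, too few for a fold.

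In that comparison 5 members had groups that did not overlap with the deleted background higher (Pfkfb3, Gapdh, Pfkp, Aldoa and Egln3), where 5.28% of all genes did, and 2 with it lower (Pfkfb4 and Ddit4), where 3.76% did. Egln3, the HIF-induced prolyl hydroxylase, was at 7.08, 2.88, 11.8 and 15.3 CPM in Tie2Cre_H2Abf and at 2.27, 1.71 and 2.52 in Tie2Cre. Without Tie2Cre_9501 and WT_9771 the direction was less one-sided: 18 members lay above 0 and 15 below, the median was 0.132 with all genes at 0, and 1 member was higher and 2 lower at an unadjusted p under 0.05 (2.52% and 2.92% of all genes). Groups without overlap were then 5 higher and 3 lower (9.13% and 7.61% of all genes). With all libraries in, the 7 tested members of lower glycolysis had fitted changes above 0 (41.6% of all genes did), from 0.06 to 0.85 on the log2 scale, and without the 2 least deep libraries 5 lay above 0 and 2 below. Of the nuclear genes of oxidative phosphorylation 61 of 73 tested had a fitted change below 0 with all libraries in (median -0.43, all genes -0.24), and 66 of 74 without the 2 (median -0.609, all genes 0). The 16 endothelial markers summed to 8251 ± 1491 CPM in Tie2Cre_H2Abf and 5906 ± 2014 in Tie2Cre, and 9 mural markers to 13.2 ± 2.39 against 67.5 ± 24.4. The part of these in the result was not tested.

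In TCRKO against WT, 4 glycolytic enzymes stood higher in every TCRKO library at an unadjusted p under 0.05. The 4 WT libraries also serve as the reference for CD4KO, CD8KO and Tie2Cre, so these 4 comparisons share them. Gapdh, which oxidises glyceraldehyde 3-phosphate, was at 793, 1149 and 800 CPM in TCRKO and at 253, 344, 163 and 635 in WT. Tpi1 was at 71.3, 111 and 93.2 CPM against 41.2, 27.8, 4.10 and 53.0. All 3 TCRKO libraries were above all 4 WT libraries for both genes. Pgk1, which makes ATP from the product of Gapdh, was at 61.6, 39.9 and 62.3 CPM against 19.5, 18.3, 14.8 and 26.9. Gpi1 was at 170, 199 and 122 CPM against 85.4, 102, 23.0 and 97.1. Neither of these overlapped with WT either.

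The fitted log2 changes were 1.39 ± 0.36 for Gapdh (adjusted p = 0.245), 1.52 ± 0.53 for Tpi1 (0.502), 1.45 ± 0.51 for Pgk1 (0.506) and 1.08 ± 0.40 for Gpi1 (0.536). No member passed in edgeR, where 0.0269% of all genes did, and limma-voom passed 0; DESeq2 passed 2, Gapdh (adjusted p = 0.00309) and Gpi1 (0.0488), where it passed 0.609% of all genes. Gapdh also passed in edgeR without WT_9772, its highest WT library (1.87 on the log2 scale, adjusted p = 0.0365). At an unadjusted p under 0.05, 5 of the 33 members were higher and 1 lower, beside 8.65% of all genes, 3.99% higher and 4.66% lower. The lower one was Epas1, at 154, 107 and 152 CPM in TCRKO and 542, 270, 112 and 263 in WT, where WT_9771 overlapped. The fifth higher one was Slc16a1, a carrier of lactate and pyruvate, at 5.05, 3.21 and 8.64 CPM in TCRKO and 1.49, 0.637, 0 and 0 in WT, with 12 counts in WT in all.

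Groups did not overlap for 8 members with TCRKO higher, where 5.57% of all genes did, and for 1 with TCRKO lower (Ndrg1), where 2.1% did. The 8 were Gpi1, Aldoa, Tpi1, Gapdh, Pgk1, Ldha, Slc16a1 and Higd1a. Aldoa was at 112, 151 and 100 CPM against 99.3, 81.1, 24.6 and 92.0, so the lowest TCRKO library barely exceeded the highest WT library. Ldha was at 85.2, 91.0 and 68.4 CPM against 59.1, 51.0, 39.4 and 61.1. Egln3 was at 16.5, 24.2 and 17.3 CPM in TCRKO, above 3 of the 4 WT libraries (8.77, 2.76 and 4.10) and overlapping WT_9772 at 20.4. Not all of the pathway lay above 0: of the 11 tested members of upper glycolysis 5 had a fitted change above 0 and 6 below, and Pfkfb3 and Pfkp overlapped with WT. In lower glycolysis 6 of 7 lay above 0 with a median of 0.70. Over all 33 members 22 lay above 0 and 11 below, with a median of 0.17 against -0.20 for all genes, of which 43.1% lay above 0; without WT_9749 the member median was 0.611.

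Without the 2 least deep libraries, 9 members stood higher without overlap (8.68% of all genes) and 2 lower (5.3%), 5 were higher and 1 lower at an unadjusted p under 0.05 (6.58% and 4.44%), and the member median was 0.46 with all genes at 0.13. With all libraries in, 64 of 73 tested nuclear oxidative phosphorylation genes had a fitted change above 0 (43.1% of all genes did; median 0.88), and 20 did not overlap with TCRKO higher (5.57% of all genes). Without the 2 these numbers were 62 of 74 and 24 (8.68% of all genes). The direction was not particular to TCRKO. Against the same WT libraries, with all libraries in, 60 of 73 lay above 0 in CD4KO (46.8% of all genes; median 0.616). In CD8KO 63 did (43.4%; median 0.6) and in Tie2Cre 59 (50.8%; median 0.482). In each of these, 1 gene did not overlap with WT lower. Endothelial markers summed to 4360 ± 973 CPM in TCRKO and 5384 ± 1691 in WT, 11 fibroblast markers to 67.6 ± 29.4 against 14.4 ± 15.2, and 11 epithelial and tumour cell markers to 12.1 ± 6.40 against 5.52 ± 5.86. Of the last list 6 genes had 0 counts in TCRKO and 5 in WT, Epcam and Krt19 among them in both. With all libraries in, 3 of its genes passed the filter, 1 with a fitted change above 0 and 2 below (median -0.721). Without the 2 least deep libraries 4 passed the filter and 4 lay above 0 (median 2.37). The part of these lists in the result was not tested.

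CD4KO against WT showed no common direction. No member passed in edgeR (0% of all genes did), DESeq2 or limma-voom, and 1 was higher and 0 lower at an unadjusted p under 0.05, beside 8.58% of all genes, 4.03% higher and 4.55% lower. Of the 33 members 17 lay above 0 (46.8% of all genes did) and 16 below, the median was 0.06 against -0.08 for all genes, and no member's groups were free of overlap (2.73% of all genes were with CD4KO higher and 1.19% with it lower). The 1 member was Ddit4, a stress-induced inhibitor of mTORC1, at 22.3, 5.63 and 3.26 CPM in CD4KO and 2.65, 0.425, 0 and 3.98 in WT (2.43 ± 1.01, adjusted p = 0.573); without CD4KO_9768 its log2 change was 1.23. Pfkfb3 had a log2 change of 0.86 ± 0.47 (adjusted p = 0.602), and without WT_9771 and Tie2Cre_9501 all 3 CD4KO libraries were above the WT libraries left. Egln3, at 0, 1.28 and 5.77 CPM in CD4KO, had a log2 change of -1.90 ± 0.93 (adjusted p = 0.585), which was -3.69 without CD4KO_9770 and -1.11 without WT_9772. Slc16a3 was at 0.437, 2.82 and 10.7 CPM in CD4KO and 11.6, 14.02, 4.10 and 24.6 in WT (-1.53 ± 0.84, adjusted p = 0.605). Its log2 change was -0.999 without CD4KO_9768 and -3.02 without CD4KO_9770. Without the 2 least deep libraries the median turned to -0.05, with 3 members higher and 3 lower at an unadjusted p under 0.05 (7.33% and 3.2% of all genes), and groups without overlap numbered 1 higher and 1 lower (5.02% and 2.83%). Without CD4KO_9770 alone the median was -0.207 and without WT_9748 alone 0.42. Fibroblast markers summed to 33.9 ± 13.6 CPM in CD4KO and 14.4 ± 15.2 in WT, and their part was not tested.

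The libraries labelled CD8KO differed from WT at an unadjusted p under 0.05 in 3 members, 2 higher and 1 lower (10.5% of all genes, 2.57% higher and 7.97% lower), and none passed in edgeR (0% of all genes did), DESeq2 or limma-voom. The lower one was Pfkfb3, with a log2 change of -1.23 ± 0.49 (adjusted p = 0.465), -0.75 without CD8KO_9752 and -0.79 without the 2 least deep libraries. Gapdh was at 566, 600 and 652 CPM in libraries labelled CD8KO, close together, where only WT_9772 reached this range (0.80 ± 0.36, adjusted p = 0.465, and larger, with an adjusted p of 0.388, without WT_9772). Pgk1 was at 27.7, 89.3 and 17.3 CPM in libraries labelled CD8KO, and its log2 change of 1.17 ± 0.50 (adjusted p = 0.465) was 0.27 without CD8KO_9752. Hk2, the fourth by p, stood at 0.41 ± 0.47 CPM in libraries labelled CD8KO and 5.40 ± 6.46 in WT. Gpi1 alone did not overlap, with the labelled CD8KO libraries higher (3.69% of all genes). Over the list 20 members lay above 0 (43.4% of all genes did) and 13 below, with a median of 0.19 against -0.18 for all genes, and 0.0278 without WT_9771 alone. Without the 2 least deep libraries these numbers were 17 and 16, with medians of 0.07 and 0.02, and 2 members were higher and 0 lower at an unadjusted p under 0.05 (4.43% and 3.13% of all genes). Groups without overlap were then 2 higher, Gpi1 and Slc2a3, and 1 lower, Slc16a3 (6.85% and 3.48%). All 16 endothelial markers had a fitted change above 0 in these libraries, summing to 7042 ± 827 CPM against 5384 ± 1691 in WT, and all 14 macrophage markers one below 0, summing to 488 ± 101 against 1365 ± 887. The part of these in the result was not tested.

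In Tie2Cre against WT the members had no common direction either. No member passed in edgeR (0% of all genes did), DESeq2 or limma-voom, and 0 members were higher and 2 lower at an unadjusted p under 0.05, beside 6.85% of all genes, 3.97% higher and 2.88% lower. Those were Egln3, at 2.27, 1.71 and 2.52 CPM in Tie2Cre and below every WT library (-2.08 ± 0.96, adjusted p = 0.718), and Slc16a3 (-1.77 ± 0.85, adjusted p = 0.723). The former was -1.29 without WT_9772 and the latter -3.33 without Tie2Cre_9502. Ddit4 was at 13.2, 4.39 and 5.54 CPM, above every WT library (2.001 ± 1.01, adjusted p = 0.736), and its log2 change was 1.10 without the 2 least deep libraries. Pfkp had a log2 change of -0.98 ± 0.53 (adjusted p = 0.768), -0.61 without Tie2Cre_9501 and -0.62 without WT_9749. Groups did not overlap for 2 members with Tie2Cre higher (2.86% of all genes) and 1 with it lower (1.34%). Of the 33 members 14 lay above 0 (50.8% of all genes did) and 19 below, with a median of -0.16 against 0.02 for all genes, and it was 0.13 without Tie2Cre_9501 and -0.38 without WT_9771. Without the 2 least deep libraries 2 members were higher and 1 lower at an unadjusted p under 0.05 (5.3% and 2.97% of all genes), and 5 higher and 3 lower had groups without overlap (9.94% and 6.17%). Of the 14 macrophage markers 13 had a fitted change below 0, summing to 466.3 ± 165 CPM in Tie2Cre against 1365 ± 887 in WT, and the mural markers summed to 67.5 ± 24.4 against 22.7 (3.975 to 35.9) in WT. The part of these in the result was not tested.

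**Figure D5:**
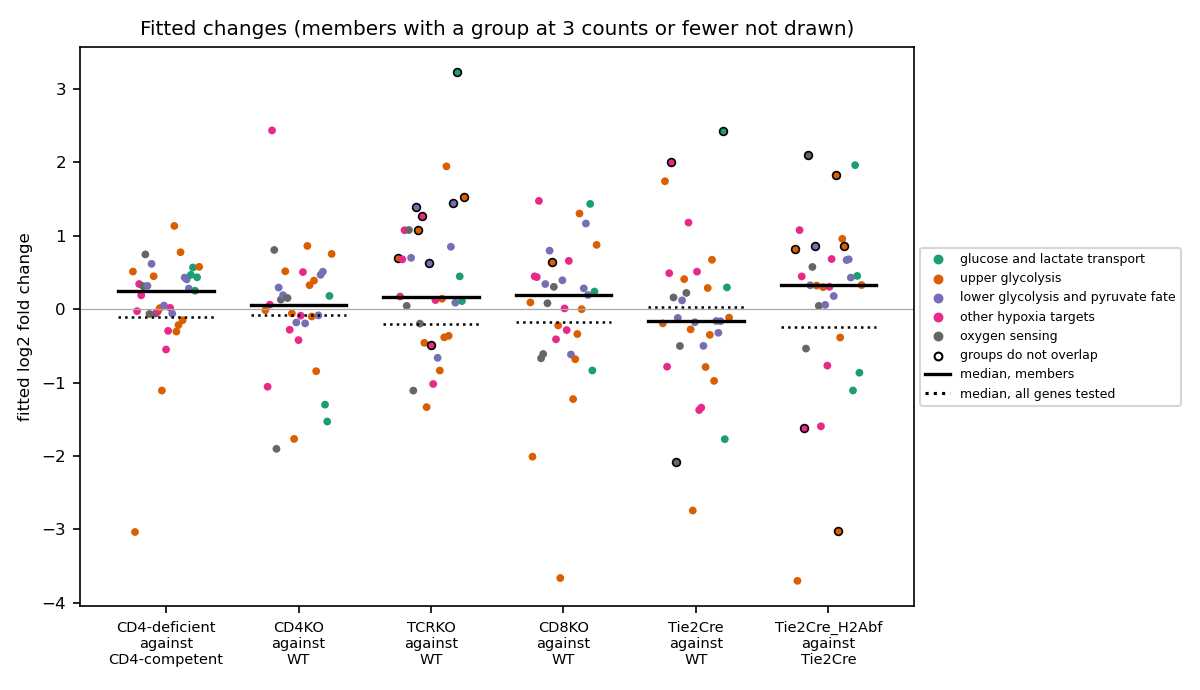
Fitted log2 fold change (y axis) of the tested members in 6 comparisons, coloured by role, with a black ring where the groups do not overlap; members with a group at 3 counts or fewer are not drawn. The solid line is the median of the 33 members and the dotted line that of all genes tested; in TCRKO against WT 9 members have such groups, and Slc16a1 stands highest.

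Whether CD4 status acted differently in the 2 series of library numbers was tested as (Tie2Cre_H2Abf minus Tie2Cre) minus (the mean of CD4KO and TCRKO minus the mean of WT and CD8KO). The first pair is numbered 95xx and the rest 97xx in the labels, which do not say what the numbers stand for. Every 95xx background carries Tie2Cre and no 97xx background is labelled with it. A difference between the number series therefore cannot be told apart from one between the kinds of genetic change. No member passed in edgeR (0.00672% of all genes did), DESeq2 or limma-voom, and 2 were higher and 3 lower at an unadjusted p under 0.05 (8.3% of all genes, 2.51% higher and 5.79% lower). With the 2 least deep libraries left out 1 was higher and 1 lower (2.96% and 5.18% of all genes). With all libraries in they were Pfkp (1.46 ± 0.66, adjusted p = 0.566), Pfkfb4, Ddit4 (-2.64 ± 1.23, adjusted p = 0.578), Higd1a and Epas1. Higd1a had -2.29 ± 1.09 (adjusted p = 0.585), and -0.94 without Tie2Cre_9501. For Pfkfb3 the difference was 1.201 ± 0.59 (adjusted p = 0.605).

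Other genes of the same pathways were followed through lists that are not part of the 36. Of 44 tested hypoxia-induced genes 32 lay above 0 in TCRKO against WT (43.1% of all genes did), with a median log2 change of 0.62, and 10 were higher and 0 lower at an unadjusted p under 0.05 (3.99% and 4.66% of all genes). In Tie2Cre_H2Abf against Tie2Cre 26 lay above 0 (41.6% of all genes), with a median of 0.25, and 9 were higher and 0 lower (2.69% and 5.86%). In CD4KO 24 lay above 0 (46.8% of all genes; median 0.14), with 3 higher and 3 lower (4.03% and 4.55%). In the libraries labelled CD8KO, which count as competent, 30 lay above 0 (43.4% of all genes; median 0.43), with 4 higher and 0 lower (2.57% and 7.97%). In Tie2Cre 23 lay above 0 (50.8% of all genes; median 0.17), with 2 higher and 3 lower (3.97% and 2.88%). Without the 2 least deep libraries 45 genes were tested. In TCRKO 12 were then higher and 0 lower (6.58% and 4.44% of all genes), and in Tie2Cre_H2Abf 7 and 1 (2.52% and 2.92%). In CD4KO they were 3 and 3 (7.33% and 3.2%), in CD8KO 5 and 0 (4.43% and 3.13%), and in Tie2Cre 2 and 3 (5.3% and 2.97%). Apln, a secreted ligand of tip cells, was at 579 ± 45.8 CPM in TCRKO (n = 3) and 593 ± 166 in Tie2Cre_H2Abf (n = 4), against 124 ± 109 in WT (n = 4) and 170 ± 88.5 in Tie2Cre (n = 3). Neither pair overlapped, with log2 changes of 2.22 ± 0.46 (adjusted p = 0.104) and 1.80 ± 0.49 (adjusted p = 0.576). In CD4KO Apln stood at 174 ± 52.3 CPM and in the libraries labelled CD8KO at 352 ± 105. Stc1, a secreted glycoprotein, was at 349 ± 55.3 CPM in Tie2Cre_H2Abf and 98.4 ± 17.97 in Tie2Cre (1.82 ± 0.40, adjusted p = 0.217), but at 158 ± 39.0 in TCRKO and 177 ± 61.1 in WT. Mif, a cytokine, was at 45.3 ± 16.1 CPM in TCRKO and 8.68 ± 7.33 in WT (2.38 ± 0.72, adjusted p = 0.403). Vegfa, the best known hypoxia-induced ligand, was scarce, with 17 counts in the 10 competent libraries and 355 in the 10 deficient ones; those were 134 in CD4KO, 177 in TCRKO and 44 in Tie2Cre_H2Abf. In CD4KO 1 library at 9.47 CPM held most of them, with the others at 0.768 and 0, and TCRKO ran from 0.862 to 17.05 CPM. Its log2 change by CD4 status was 4.03 ± 1.01 (adjusted p = 0.375). In that comparison 34 of the 44 genes lay above 0 (42.9% of all genes did), and 5 were higher and 0 lower at an unadjusted p under 0.05 (1.9% and 5.37%). Without the 2 least deep libraries 39 of 45 lay above 0, and 6 were higher and 0 lower (5.14% and 2.32% of all genes). Their median was then 0.36 with all genes at 0.038, against 0.308 and -0.111 with all libraries in. None of these genes passed the threshold in any comparison in edgeR.

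Further glycolysis and pyruvate genes (26 tested) gave no shared direction, with 11 above 0 and 15 below in TCRKO and 15 above and 11 below in Tie2Cre_H2Abf. These were 13 and 14, and 17 and 9, of 27 tested without the 2 least deep libraries. Of all genes, with all libraries in, 43.1% lay above 0 in TCRKO and 41.6% in Tie2Cre_H2Abf. The pentose phosphate pathway, which branches off before phosphofructokinase and makes NADPH, had 5 of 7 tested genes above 0 in TCRKO and 2 of 7 in Tie2Cre_H2Abf, or 6 of 6 and 2 of 6 without the 2 least deep libraries. Its entry enzyme G6pdx was at 54.6 ± 19.3 CPM in TCRKO and 19.3 ± 14.4 in WT, without overlap (1.47 ± 0.67, adjusted p = 0.563). Of the HIF regulators that are no members, 4 were tested. Hif1an, which blocks the HIF transactivation domain, was at 2.36 ± 2.03 CPM in TCRKO and 20.1 ± 26.3 in WT (-3.02 ± 1.15, adjusted p = 0.536), with 1 WT library at 57.4 CPM. Hif1a itself ran from 36.7 to 88.8 CPM over all 20 libraries, and Slc2a1 from 22.7 to 127.

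Near-identical gene copies bear on the members that stood out. Gapdh has 86 copies with at least 95% identity over at least 300 bases, which together held 12.74% of the Gapdh-like counts, up to 44.64% in WT_9771. Pgk1-rs7 is identical to Pgk1 over 1255 aligned bases and held 2727.9 counts beside 5596.1 of Pgk1, and Pgam1-ps2 held 4831.3 beside 10544.2 of Pgam1. The copy of Gpi1 held 0.759% overall but 42.84% in WT_9771, its low WT library. For Pgk1 the posterior SD of the count reached 39.34% of it in a library. With the copies summed into the member no call changed, and the log2 change of Pgk1 in TCRKO was 1.29. The library kit does not mark strand, so reads where a member overlaps a gene on the other strand cannot be told apart. Such overlaps include Gapdh with Iffo1, Pfkp with Pitrm1, Aldoa with Fam57b, Tpi1 with Spsb2 and Gpi1 with Gm26762. Egln3 had neither such a copy nor an overlapping gene, and Pfkfb3 had no copy but overlaps the antisense gene Gm10851, which held 230 counts.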

How the data were processed

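Total RNA of sorted CD31-positive cells was amplified by MATQ and made into Nextera XT libraries, which do not mark strand, per the labels' protocols. The deposited expected counts and TPM were made with bcl2fastq 2.17, STAR and RSEM 1.2.28 on GRCm38, with DESeq2 also named, per the submitters' processing notes; the STAR version and annotation release are not given in the sources used here. From the deposited tables, expected counts (4.453% not whole) were rounded. Symbols came from GENCODE on GRCm38, for 46488 of 46983 identifiers. All 20 libraries in 6 groups were fitted together with edgeR 4.0.16 (TMM, filterByExpr, robust quasi-likelihood test, Benjamini-Hochberg adjustment over 14875 genes, threshold 0.05). limma 3.58.1 (voom), DESeq2 1.42.0, other filters and scalings, and leaving out each library were alternatives. CPM uses TMM effective library sizes. In tests on simulated data with known changes, the TCRKO contrast recovered 22% of 4-fold and 92% of 16-fold changes, and the CD4 status contrast 86% and 99%. Only genes above a set mean level were changed there, and a change was the same in every background of a class. These shares therefore do not cover scarce members or differences between backgrounds of a class, and may be too high for the CD4 status contrast. Named with fold changes were, per comparison, the 4 members lowest in p among those averaging 1 CPM or more, and for other lists the 2 genes lowest in p; further members were named after their values were seen. The members and lists were chosen with earlier results of these data known. Near-identical copies were sought with blastn 2.17.0+. Counting error is the only error a depth covers.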

Additional observations from a re-analysis of the deposited data

Results flagged for a closer look

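Over 14 members and 56 groups of libraries, 9 groups held a library far from the others by Dixon's criterion, which chance meets in about 1 in 20 groups. For each member the groups were WT, Tie2Cre_H2Abf, all competent and all deficient libraries. The last of these hold the first, so the groups are not separate. CD8KO, Tie2Cre, CD4KO and TCRKO had too few libraries for the criterion and were not tested on their own. WT_9771 was low for Aldoa at 24.62 CPM (other WT libraries 81.14 to 99.33) and for Gpi1 at 22.98 CPM, both within WT (85.42 to 102.0) and within all competent libraries (77.59 to 135.7). Tie2Cre_9501 was high for Higd1a at 15.12 CPM (other competent libraries 1.442 to 4.103) and low for Pfkp at 13.6 CPM (35.29 to 100.5). CD4KO_9768 was low for Pfkp at 7.642 CPM among deficient libraries (33.87 to 72.83), and Tie2Cre_H2Abf_9582 was high for it at 72.83 CPM within its background (49.36 to 50.54). CD8KO_9752 was high for Pgk1 at 89.31 CPM among competent libraries (8.314 to 27.68). Hk2 was at 0.3541 CPM in Tie2Cre_H2Abf_9576 and at 0 in the other libraries of that background, a level of 2 counts.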

How the results depend on the processing

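No paired analysis was possible because the library numbers differ between backgrounds. Members passing in the test of any difference numbered 1 with no filter, 1 without the 2 least deep libraries (chosen with earlier results known), 2 in DESeq2 and 0 to 1 on leaving out each library. In TCRKO against WT they numbered 1 with at least 5 CPM in 10 libraries, 2 in DESeq2 and 0 to 1 on leaving out each library. The cause was not tested. Leaving out each library put the TCRKO member median between 0.166 and 0.611. The other member medians then ran from 0.0731 to 0.315 by CD4 status, from -0.207 to 0.42 in CD4KO, from 0.0278 (without WT_9771) to 0.26 in CD8KO, from -0.38 (without WT_9771) to 0.133 in Tie2Cre, from 0.173 (without Tie2Cre_9501) to 0.448 in Tie2Cre_H2Abf and from 0.0665 (without Tie2Cre_9501) to 0.369 for the difference. The CD4KO median turned from 0.06 to -0.0476 without the 2 least deep libraries and to -0.0315 in DESeq2. Over all genes, DESeq2 passed 344 in the test of any difference where edgeR passed 9, and 203 against 4 in TCRKO, 60 against 0 by CD4 status, 122 against 0 in CD4KO, 90 against 0 in CD8KO, 125 against 0 in Tie2Cre, 70 against 3 in Tie2Cre_H2Abf and 42 against 1 in the difference between number series. With no filter edgeR passed 672, 31, 10, 12, 9 and 33 genes for any difference, TCRKO, CD4KO, CD8KO, Tie2Cre_H2Abf and the difference. With at least 5 CPM in 10 libraries it passed 27, 15, 10 and 3 for any difference, TCRKO, Tie2Cre_H2Abf and the difference, and limma-voom passed 16 for any difference, 8 by CD4 status, 1 in CD8KO, 15 in Tie2Cre_H2Abf and 2 for the difference. Without the 2 least deep libraries 21 passed for any difference and 15 in TCRKO. TCRKO gave 9 with DESeq2's size factors in edgeR, 7 among protein-coding genes, 0 with effective-length offsets and 0 when fitted with WT alone. Tie2Cre_H2Abf gave 5 with those size factors, 2 with the offsets, 2 without the 2 least deep libraries and 1 when fitted with Tie2Cre alone. The difference gave 0 with the offsets, and an equal weighting of backgrounds gave 4 by CD4 status. The median of CD4KO members was -0.00109 with the offsets. DESeq2's size factors in edgeR moved the median of all genes from -0.237 to -0.427 in Tie2Cre_H2Abf, and the members stood 0.561 and 0.635 above it; in CD8KO it moved from -0.178 to -0.372, and the members split 17 above 0 to 16 below, against 20 to 13. Depth limits Eno2, Ldhb, Bnip3, Aldoc, Hk2 and Slc2a3, which held few counts.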
